A study of Mus musculus with 14 samples.

Results

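The 43 single cells called CTC in 5 tumor-bearing samples were set against the 24 single cells of the control sample labelled PltLike, 67 of the 648 cells of the series. Cells were taken by name: every cell whose name ends in CTC, and every cell of the PltLike sample. The CTC came from female C57BL/6J mice of 6-8 weeks that had received fluorescently labelled B16F10 melanoma cells and no drug. The PltLike sample is labelled naive, female C57BL/6J of 6-8 weeks, with Control as its tissue and a batch of its own. The labels do not define the name PltLike, name no sort markers, and do not say whether the samples are separate animals, so the spread between samples may be partly technical. RNA of each cell was read by Smart-seq2, a full-length single-cell method, and the counts of a sample's cells were added up. Tumor-bearing replicates 1, 2, 3, 5 and 6 held 3, 6, 15, 14 and 5 CTC, of which 28 came from blood and 15 from lung. The lung cells belonged to replicates 2, 3 and 5, which held 1, 4 and 10 of them.

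B16F10 is a pigmented mouse melanoma line of the C57BL/6 background. Circulating tumor cells are tumor cells found in blood, and in this model their pigment genes, among them the melanin enzymes Tyr, Tyrp1 and Dct and the melanosome protein Pmel, separate them from blood cells. Melanoma cells draw energy from glycolysis and from the mitochondrial respiratory chain, divide in culture, and respond to low oxygen, growth factors and interferon through well-described target genes.

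The promoters of 4 genes taken from the low-oxygen and glycolysis genes (Car9, Ldha) and the pigment genes (Trpm1, Tyr) are shown because these groups recur below. Each runs from 250 bases before to 50 after the gene's start, from RefSeq on GRCm38.p6, in the direction of transcription. Capitals mark ACGTG, the core of hypoxia response elements, in Car9 and Ldha, and CATGTG, an E-box that MITF is known to bind, in Trpm1 and Tyr, on either strand.
Car9, chr4:43506776-43507075 (+): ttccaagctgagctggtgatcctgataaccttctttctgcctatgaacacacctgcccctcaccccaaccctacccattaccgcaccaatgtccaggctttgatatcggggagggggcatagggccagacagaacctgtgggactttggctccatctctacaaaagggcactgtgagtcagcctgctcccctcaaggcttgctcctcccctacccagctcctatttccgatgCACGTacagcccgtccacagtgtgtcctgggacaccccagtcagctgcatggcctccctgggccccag
Ldha, chr7:46845554-46845853 (+): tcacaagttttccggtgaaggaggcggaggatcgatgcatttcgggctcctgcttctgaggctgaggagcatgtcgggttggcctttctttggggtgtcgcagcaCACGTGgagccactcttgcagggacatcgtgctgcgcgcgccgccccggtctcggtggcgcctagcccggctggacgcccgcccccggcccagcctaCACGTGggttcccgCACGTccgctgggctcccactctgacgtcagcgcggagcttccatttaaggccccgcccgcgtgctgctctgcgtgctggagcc
Trpm1, chr7:64153585-64153884 (+): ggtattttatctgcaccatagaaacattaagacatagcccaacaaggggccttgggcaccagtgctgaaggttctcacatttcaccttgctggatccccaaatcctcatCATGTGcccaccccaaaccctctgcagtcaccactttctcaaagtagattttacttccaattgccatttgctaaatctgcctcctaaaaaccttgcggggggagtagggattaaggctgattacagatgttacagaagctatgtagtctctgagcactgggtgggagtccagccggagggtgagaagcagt
Tyr, chr7:87493463-87493762 (-): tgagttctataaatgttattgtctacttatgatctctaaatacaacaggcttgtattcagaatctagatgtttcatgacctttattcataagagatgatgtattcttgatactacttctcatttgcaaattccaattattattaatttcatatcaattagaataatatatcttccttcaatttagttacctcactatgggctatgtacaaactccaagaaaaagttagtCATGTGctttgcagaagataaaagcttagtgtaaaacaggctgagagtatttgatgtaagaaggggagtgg
On either strand, ACGTG occurred in 19.67% of the 27025 RefSeq promoters of this length, in 25.48% of those of tested genes, in 8 of 18 glycolysis genes and in 10 of 16 hypoxia genes. In Ldha its 5 matches overlap where they form CACGTG, which holds it on both strands. CATGTG occurred in 14.13% of all promoters, in 8.677% of those of tested genes and in 6 of 10 pigment genes. The 4 promoters shown all hold their motif and do not represent their groups. Of those searched for ACGTG but not shown, Aldoc held 1 match, and Ldhb and Capn6, both described below, held 0. A match describes the letters and is no evidence of binding.

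The 5 CTC sums held 50.9, 181, 298, 515 and 103 megacounts, against 471 megacounts in PltLike. A median CTC had 22.1 megacounts and 8576 detected genes, against 19.9 megacounts and 8894.5 genes in PltLike. One lung CTC of replicate 2 stood apart with 3712 detected genes. PltLike is a single sample that shares its batch label with no other, so batch and group cannot be told apart, and no spread between PltLike samples exists. Levels below are in CPM, counts set to a common library total, and are scaled by TMM, edgeR's correction for library composition, unless they are called unscaled. No doublet caller was run and no cell was removed.

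The cells labelled PltLike carried the pigment genes of a melanoma cell, which goes against a label of naive mouse cells. The summed level of 15 melanosome and pigment genes had a median of 37644 unscaled CPM per CTC (range 6578 to 70485), against 31839 per PltLike cell (range 7912 to 50315). All 67 of these cells lay above each of the 67 white blood cells of the series, whose highest value was 4173. B16F10 culture cells had a median of 45571. PltLike is therefore used here only as the name of the library labelled so.

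Defining platelet markers were at or near 0 in PltLike and in CTC. The summed level of 22 platelet and megakaryocyte genes was 112, 130, 107, 122 and 173 CPM in the CTC samples, against 58.1 CPM in PltLike. Most of it was Gng11, a G protein subunit that B16F10 held at 59.7 CPM. It was at 81.5, 98.8, 76.6, 101 and 133 CPM in CTC against 40.6 CPM in PltLike. Of these genes, 9 were at 0 in PltLike, among them Gp1bb, Gp5, Gp6, Clec1b, Tubb1 and Treml1, which encode platelet surface or cytoskeletal proteins. Of 12 members tested, 4 (Ppbp, Gp9, P2ry12 and Pf4) were higher in PltLike than in all 5 CTC samples, as were 16.9% of all genes tested. Ppbp, a platelet chemokine, had counts in 1 of 43 CTC and 3 of 24 PltLike cells, at up to 333 counts in a PltLike cell. Gp9, a subunit of the platelet von Willebrand factor receptor, had counts in 0 of 43 CTC and 1 of 24 PltLike cells. P2ry12, an ADP receptor, had counts in 6 of 43 CTC and 1 of 24 PltLike cells. These differences therefore rest on 1 to 3 PltLike cells. In bulk sums like these, fewer cells with a transcript and less of it per cell cannot be told apart without the cell counts.

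**Figure D1:**
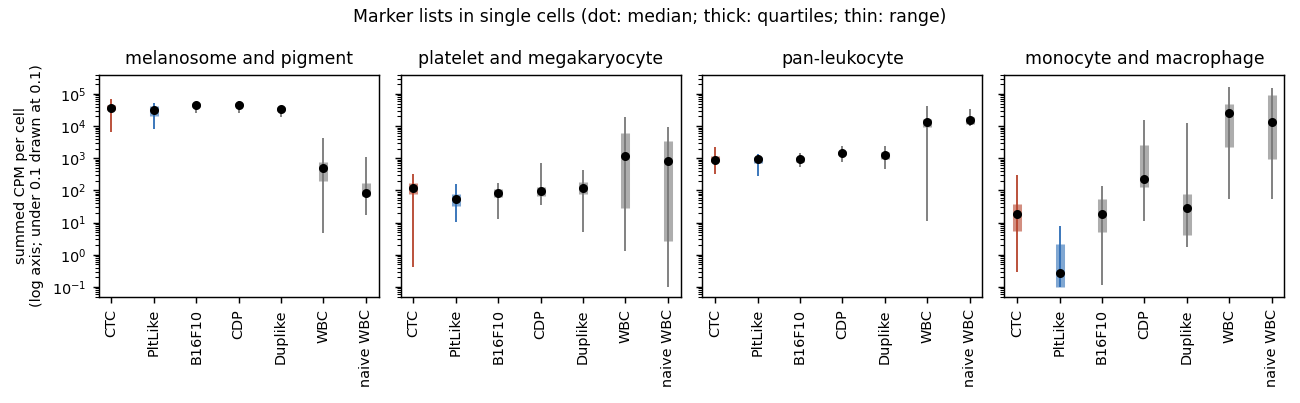
Summed unscaled CPM of 4 marker lists in single cells, on a log axis, for CTC (red), PltLike (blue) and the other cell groups of the series (grey); the dot is the median, the thick bar the quartiles and the thin bar the range. CTC and PltLike share the melanosome level of B16F10 and have medians below those of white blood cells (WBC) for the platelet, pan-leukocyte and monocyte lists. The ranges overlap with WBC for the platelet and pan-leukocyte lists and, for CTC alone, for the monocyte list.

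Across 12735 genes, 1 gene passed edgeR's quasi-likelihood test as higher in CTC after Benjamini-Hochberg adjustment (0.00785%), and none as higher in PltLike. At an unadjusted p under 0.05 the same test had 238 genes higher in CTC (1.87%) and 357 higher in PltLike (2.8%). DESeq2's Wald test called 295 genes higher in CTC and 4 higher in PltLike, among them 12 of the 24 genes with the largest differences named below in addition to Capn6. All spread in these fits comes from the CTC samples, and PltLike is assumed to vary like them. An exact permutation test of 5 samples against 1 cannot go below p = 0.167, so genes are described below by whether PltLike lay outside the range of all 5 CTC samples. All 5 CTC samples lay above PltLike for 1428 genes (11.2%) and below it for 2158 (16.9%). With at least 2-fold between PltLike and the nearest CTC sample, these were 345 genes above (2.71%) and 440 below (3.46%). The median log2 difference of all genes, CTC over PltLike, was 0.08.

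The gene that passed was Capn6, on chrX:143802231-143827414 of GRCm38 (minus strand), a calpain family member without protease activity that is known to stabilize microtubules. Its level was 167, 61.5, 113, 63.7 and 228 CPM in the CTC samples and 0 in PltLike. No CTC sample came near PltLike, and counts stood in 40 of 43 CTC (93.0%, exact 95% binomial interval 80.9 to 98.5%) and in 0 of 24 PltLike cells, which allows a share of up to 12.5% by the limit of 3 cells and 14.2% by the exact interval. Cells of 1 sample share their source, so these limits cover counting error and not the spread between samples. Some of the 40 CTC held only traces, down to 0.0563 unscaled CPM in a cell of replicate 2. By tissue, Capn6 was at 0, 27.8 and 49.1 unscaled CPM in lung CTC of replicates 2, 3 and 5. Blood CTC of the same replicates had 63.9, 158 and 168 unscaled CPM. Pooled over cells, CTC were at least 14882-fold higher than the level of 3 counts in all of PltLike. The fitted log2 difference was 18.06 ± 1.84 (SE), with an adjusted p of 0.0486 by edgeR's quasi-likelihood test, and it depends on the prior count. The call was lost in 9 of 16 alternative settings, DESeq2's size factors and the removal of replicate 1, 2, 3 or 5 among them, while the counts in PltLike were 0 throughout. Keeping only samples of at least 5 cells equals removing replicate 1, so these settings count that fit again. Capn6 was also at 0 in B16F10 and CDP and at 0.00388 CPM in Duplike, the 3 other pigmented controls. White blood cells, which had a median of 2.2 megacounts, showed at least 1 Capn6 count in 26 of 67 cells.

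**Figure D2:**
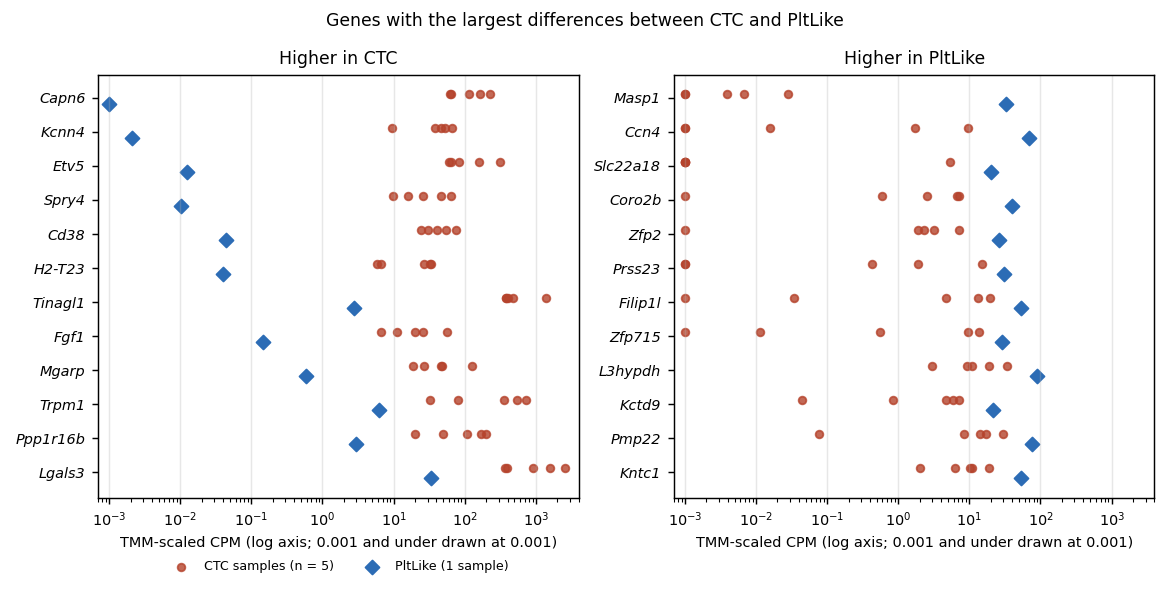
TMM-scaled CPM (log axis) of the 12 genes per direction with the largest differences, 5 CTC samples as red dots and the PltLike sample as a blue diamond. Among genes higher in CTC, Capn6 is at 0 in PltLike; among those higher in PltLike, Masp1 stays under 0.03 CPM in every CTC sample.

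Capn6 included, 134 genes met the rule for naming on the CTC side, and the 12 with the largest log2 difference, Capn6 among them, cover signalling, matrix and surface proteins. Tinagl1, a secreted matricellular protein (chr4:130164454-130175122), was at 412, 471, 385, 381 and 1391 CPM in the CTC samples against 2.76 CPM in PltLike. Lgals3, the sugar-binding protein galectin-3, was at 374, 914, 1585, 2584 and 394 CPM in CTC against 33.3 CPM in PltLike. Kcnn4, a calcium-activated potassium channel, was at 46.3, 66.9, 9.53, 38.6 and 52.4 CPM in CTC against 0.00208 CPM in PltLike. None of these groups overlapped, which the naming rule required. Replicate 6 was highest for Tinagl1 and replicate 5 for Lgals3, whose lowest CTC sample still lay at 374 CPM. None passed edgeR's quasi-likelihood test, with adjusted p of 0.167 for Tinagl1, 0.721 for Lgals3 and 0.146 for Kcnn4.

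In single cells, Tinagl1 had counts in 43 of 43 CTC and 5 of 24 PltLike cells, with a median of 346 against 0 unscaled CPM. Lgals3 had counts in 43 of 43 CTC and 20 of 24 PltLike cells, but with a median of 742 against 0.4 unscaled CPM. When each cell was thinned to 8000000 counts, which left out none, Capn6 kept counts in 90.7% of CTC and 0% of PltLike cells, and Tinagl1 in 100% and 20.8%. White blood cells had Tinagl1 counts in 38 of 67 cells and Lgals3 counts in 62 of 67.

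The other controls divide these genes. Tinagl1 was at 16.01, 2.32 and 10.6 CPM in B16F10, CDP and Duplike, below every CTC sample. Lgals3 was at 734, 418 and 64.1 CPM in B16F10, CDP and Duplike, so B16F10 lay within the CTC range. Cd38, an enzyme that breaks down NAD, was at 74.9, 54.0, 30.5, 24.2 and 40.2 CPM in CTC against 0.0436 CPM in PltLike, with B16F10 at 25.4 CPM. Fgf1, a fibroblast growth factor, was at 56.6, 26.2, 11.1, 6.58 and 20.02 CPM in CTC against 0.145 CPM in PltLike, with B16F10 at 29.7 CPM. For Lgals3, Cd38 and Fgf1, B16F10 thus fell within the range of the CTC samples and PltLike below it.

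Of 15 ERK-induced genes, a list chosen after values were seen, 5 lay above PltLike in all 5 CTC samples and none below, beside 11.2% and 16.9% of all genes. Their median log2 difference was 1.17, and the list's sum was 1056, 735, 715, 1274 and 1997 CPM in CTC against 548 CPM in PltLike. Etv5, an ETS transcription factor, was at 158, 84.2, 59.3, 64.7 and 317 CPM in CTC against 0.0125 CPM in PltLike. Spry4, an inhibitor of receptor tyrosine kinase signalling, was at 46.2, 9.85, 16.1, 25.7 and 64.4 CPM in CTC against 0.0104 CPM in PltLike. Dusp6, a phosphatase of ERK, was at 298, 187, 177, 449 and 507 CPM in CTC against 112 CPM in PltLike. Spry2, of the same family as Spry4, overlapped, at 8.25 to 78.3 CPM in CTC against 10.7 CPM in PltLike. Replicate 6 was highest for Etv5, Spry4, Dusp6 and Spry2. None of the 15 passed edgeR's quasi-likelihood test, Etv5 with an adjusted p of 0.146.

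Higher in PltLike, 46 genes met the naming rule, led by Masp1, a serine protease of the complement lectin pathway (chr16:23449417-23520815). Masp1 was at 0, 0.0281, 0.00688, 0.00392 and 0 CPM in the CTC samples and at 32.3 CPM in PltLike. Counts stood in 6 of 43 CTC and in 24 of 24 PltLike cells, with a PltLike median of 25.6 and a highest CTC of 0.129 unscaled CPM. The log2 difference was -11.83 ± 2.08 (SE), with an adjusted p of 0.367 by edgeR's quasi-likelihood test. Masp1 was at 14.3, 8.02 and 28.5 CPM in B16F10, CDP and Duplike, so the CTC were the low ones among the pigmented groups.

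The other genes named on this side had smaller differences. L3hypdh, a hydroxyproline dehydratase, was at 3, 18.6, 9.29, 34.3 and 10.8 CPM in CTC against 89.8 CPM in PltLike. Pmp22, a myelin membrane protein, was at 17.2, 29.3, 14.2, 8.30 and 0.0765 CPM in CTC against 76.6 CPM in PltLike. Ccn4, a secreted matricellular protein, was at 9.58, 0, 1.75, 0.0157 and 0 CPM in CTC against 69.4 CPM in PltLike. Groups did not overlap for any of them, which the naming rule required. B16F10 had 48.6, 94.7 and 29.8 CPM of L3hypdh, Pmp22 and Ccn4. Kntc1, a kinetochore protein, was at 1.99, 10.8, 18.7, 10.3 and 6.19 CPM in CTC against 52.6 CPM in PltLike, and at 0.179 CPM in B16F10. Coro2b, Slc22a18, Zfp2, Prss23, Filip1l, Zfp715 and Kctd9 complete the 12, with PltLike levels of 20.5 to 53.4 CPM and at least 1 CTC sample under 1 CPM for each.

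**Figure D3:**
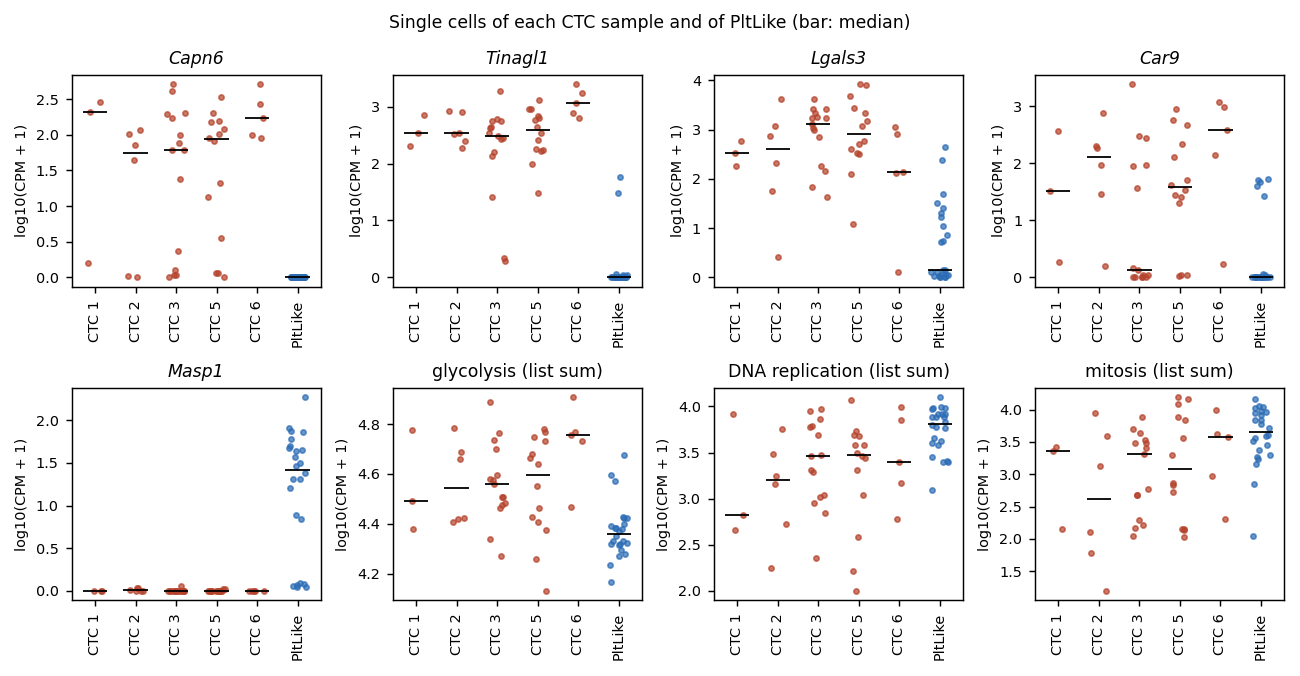
Each dot is 1 cell, in log10(unscaled CPM + 1), for 5 genes and 3 list sums; CTC replicates 1, 2, 3, 5 and 6 are red, PltLike is blue and bars are medians. Capn6 is at 0 in all PltLike cells, Masp1 near 0 in all CTC, and the replication and mitosis sums spread widely within every sample.

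No member of any of the gene lists described below passed edgeR's quasi-likelihood test after Benjamini-Hochberg adjustment, so each list is given by its counts, its median and its sum. Most glycolysis genes lay higher in CTC. Of 18 members, 14 lay above PltLike in all 5 CTC samples and none below it, where 11.2% of all genes lay above, and the median log2 difference was 0.85. The sum was 37335, 39198, 40588, 34184 and 53612 CPM in CTC against 24405 CPM in PltLike. B16F10, CDP and Duplike had 25888, 26999 and 17891 CPM, so the 5 CTC samples lay above all 4 pigmented controls. Ldhb, a lactate dehydrogenase subunit, was at 951, 823, 862, 912 and 907 CPM in CTC against 225 CPM in PltLike. Its CTC samples lay within a narrow band (mean 891 ± 49.6 SD, n = 5), a log2 difference of 1.98 ± 0.29 (SE) with an adjusted p of 0.167 by edgeR's quasi-likelihood test. Ldha, the other subunit, was at 6358, 5918, 5449, 4080 and 8424 CPM in CTC against 3737 CPM in PltLike. Aldoc, an aldolase, was at 99.2, 134, 170, 98.3 and 227 CPM in CTC against 32.5 CPM in PltLike. Slc16a3, the lactate exporter MCT4, was at 22.1, 54.0, 85.4, 90.3 and 218 CPM in CTC against 19.6 CPM in PltLike. Hk2, Pfkm, Gapdh and Eno2 overlapped, with log2 differences of 0.06, -0.46, 1.27 and 0.81.

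Respiratory chain genes also lay higher, with 11 of 14 members above PltLike in all 5 CTC samples and none below, beside 11.2% and 16.9% of all genes. The median log2 difference was 0.47. The sum was 8714, 7750, 8211, 8586.5 and 8033 CPM in CTC against 6288 CPM in PltLike, with 5612, 4929 and 5591 CPM in B16F10, CDP and Duplike. Cox4i1, a subunit of cytochrome oxidase, was at 946, 918, 935, 1209 and 787 CPM in CTC against 593 CPM in PltLike. Ndufs1, Sdha and Uqcrc2 overlapped.

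Genes of DNA replication and mitosis lay lower in CTC than in PltLike. All 5 CTC samples were below PltLike for 14 of 19 replication genes and 12 of 19 mitosis genes, and above it for none, where 16.9% of all genes lay below. The median log2 differences were -0.92 and -1.01. The replication sum was 2958, 2538, 3797, 2893 and 4701 CPM in CTC against 6161 CPM in PltLike. The mitosis sum was 1702, 2885, 2371, 3897 and 4275 CPM in CTC against 5442 CPM in PltLike. Neither sum overlapped with PltLike, but the other controls differed among themselves. B16F10 and CDP had 629 and 666 CPM of replication and 113 and 81.3 CPM of mitosis genes, below every CTC sample, while Duplike had 5370 and 4033 CPM.

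Among replication genes, Rrm1, a ribonucleotide reductase subunit, was at 321, 248.9, 412, 346 and 554 CPM in CTC against 854 CPM in PltLike. Among mitosis genes, Top2a, which untangles chromosomes, was at 142, 244, 286, 325 and 325 CPM in CTC against 651 CPM in PltLike. Kif11, a spindle motor, was at 24.02, 69.8, 96.2, 107 and 118 CPM in CTC against 254 CPM in PltLike. Mki67, a widely used proliferation marker, overlapped, at 150, 83.5, 129, 123 and 223 CPM in CTC against 153 CPM in PltLike. None passed edgeR's quasi-likelihood test, Top2a and Rrm1 with adjusted p of 0.721. The tissue of the CTC moved with these values. The 4 blood CTC of replicate 5 had a mitosis sum of 8489 unscaled CPM, above the 5561 of PltLike, while its 10 lung CTC had 3240, and the 4 lung CTC of replicate 3 had 1010 against 3071 in its 11 blood CTC. The 1 lung CTC of replicate 2 had 125, against 2988 in its 5 blood CTC. With blood CTC alone, 4 mitosis genes lay below PltLike in all 5 samples.

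**Figure D4:**
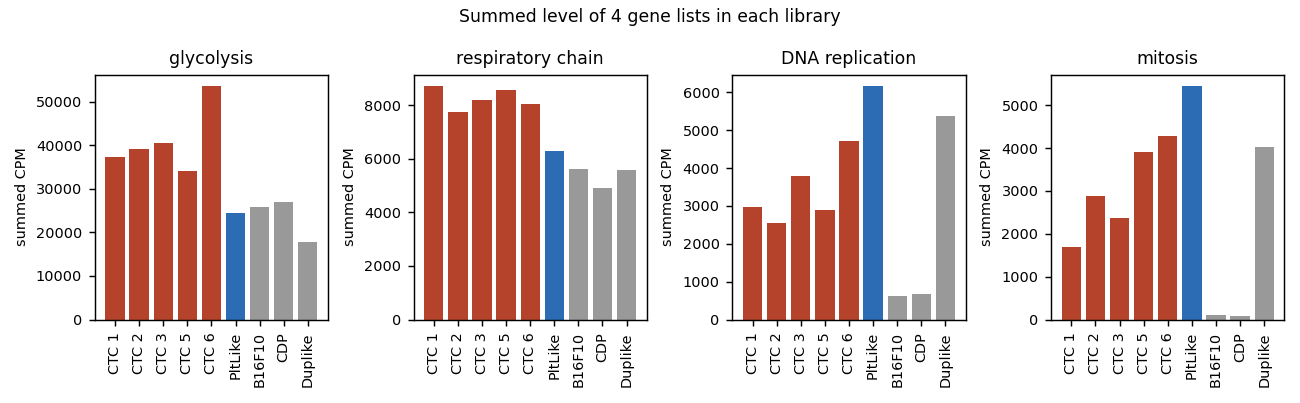
Summed TMM-scaled CPM of 4 gene lists (bars from 0) in the 5 CTC samples (red), PltLike (blue) and the controls B16F10, CDP and Duplike (grey). Glycolysis and respiratory chain bars are higher in all CTC than in PltLike, and replication and mitosis bars are lower, with B16F10 and CDP lowest for both.

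Hypoxia genes were mixed. All 5 CTC samples lay above PltLike for 5 of 18 members and below it for 2, beside 11.2% and 16.9% of all genes, with a median log2 difference of 0.75 and sums of 1347, 1775, 2207, 1123 and 4624 CPM in CTC against 1062 CPM in PltLike. Car9, carbonic anhydrase 9, a target of the hypoxia factor HIF-1, was at 126, 261, 301, 90.4 and 505 CPM in CTC against 8.73 CPM in PltLike, with 7.17, 1.93 and 1.95 CPM in B16F10, CDP and Duplike. It had counts in 38 of 43 CTC and 7 of 24 PltLike cells, a log2 difference of 4.88 ± 1.08 (SE) and an adjusted p of 0.638 by edgeR's quasi-likelihood test. Bnip3, a mitophagy receptor, was at 241, 173, 198, 117 and 702 CPM in CTC against 90.3 CPM in PltLike. Vegfa, the angiogenic growth factor, overlapped, at 4.12, 0.242, 11.4, 2.45 and 14.2 CPM in CTC against 1.19 CPM in PltLike. Replicate 6 had the highest Car9, Bnip3, Adm and Ero1a. By tissue, Car9 was at 690 unscaled CPM in lung CTC and 59.6 in blood CTC of replicate 3. In replicate 5 it was instead at 46.6 in lung CTC and 409 in blood CTC, against 8.91 in PltLike. Single cells weigh on these values: the highest CTC of replicate 3 had 2460 unscaled CPM of Car9 and the next 300.5. Some of the 38 CTC and of the 7 PltLike cells with Car9 counts held only traces, down to 0.0764 and 0.0789 unscaled CPM.

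Several pigment genes lay higher in CTC, while the most abundant ones overlapped. For 6 of 15 members every CTC sample lay above PltLike and for none below it, where 11.2% of all genes lay above and 16.9% below, with a median log2 difference of 0.58 against 0.08 over all genes. Tyrp1 was at 10532, 6310, 9886, 11284 and 3739 CPM in CTC against 9771 CPM in PltLike, so the groups overlapped. Trpm1, a cation channel of melanocytes, was at 733, 79.7, 539, 352 and 32.6 CPM in CTC against 6.32 CPM in PltLike, far apart among the CTC samples but not reaching PltLike. Tyr, tyrosinase, was at 972, 567, 548, 1181 and 697 CPM in CTC against 363 CPM in PltLike. Slc45a2, a melanosome transporter, was at 2182, 1550, 1490, 2019 and 1015 CPM in CTC against 744 CPM in PltLike. Of 13 melanocyte regulators, 2 lay above PltLike in all 5 CTC samples and 3 below, shares near the 11.2% and 16.9% of all genes. Sox10, a master regulator of the lineage, was at 392, 262, 280, 357 and 231 CPM in CTC against 149 CPM in PltLike, whereas Mitf overlapped, at 74.1 to 229 CPM in CTC against 102 CPM in PltLike.

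**Figure D5:**
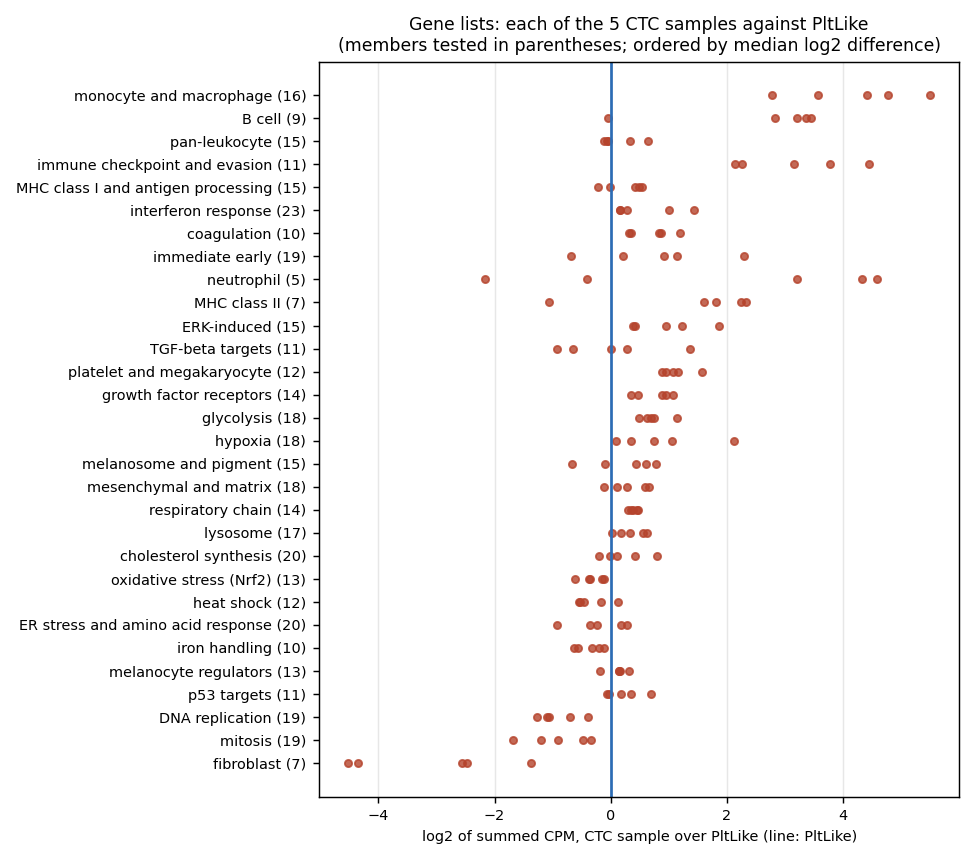
Each row is a gene list with at least 5 tested members (number in parentheses) and each red dot is the log2 ratio of its summed CPM in 1 CTC sample over PltLike, the blue line. Glycolysis and respiratory chain dots lie to the right of the line and replication and mitosis dots to its left in all 5 samples.

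Most class I antigen presentation genes lay higher in CTC than in PltLike. Of 15 members, 13 had a positive log2 difference, 9 lay above PltLike in all 5 CTC samples and 1, Calr, below it, beside 11.2% and 16.9% of all genes. Among the 9, Psmb8 and Psmb9 did so only narrowly. Replicate 6 had 0.0191 CPM of each, under the level of 3 counts, against 0.0187 and 0.0166 CPM in PltLike. The median log2 difference was 1.45. H2-K1, a classical class I heavy chain, was at 37.5, 44.5, 92.3, 87.1 and 144 CPM in CTC against 18.5 CPM in PltLike. B2m, the light chain, was at 871, 536, 800, 1056 and 436 CPM in CTC against 392 CPM in PltLike. H2-T23, a non-classical class I chain, was at 33.3, 27.0, 32.3, 5.85 and 6.56 CPM in CTC against 0.0394 CPM in PltLike. In B16F10, CDP and Duplike, H2-K1 was at 135, 217 and 114 CPM and B2m at 1078, 1205 and 522 CPM. The sum overlapped, at 1567 to 2647 CPM in CTC against 1823 CPM in PltLike. B16F10, CDP and Duplike had 2804, 3183 and 2446 CPM, so B16F10 and CDP lay above every CTC sample. Calr, a chaperone, made up 1239 CPM of the PltLike sum. Without Calr, an omission chosen after its values were seen, the sum was 1277, 928, 1561, 1729 and 879 CPM in CTC against 584 CPM in PltLike. Interferon response genes lay above PltLike in all 5 CTC samples for 5 of 23 members, Psmb8 again among them, and below it for none, beside 11.2% and 16.9% of all genes. Their sum was 931, 384, 384, 686 and 417 CPM in CTC against 344 CPM in PltLike. B16F10, CDP and Duplike had 1746, 1361 and 384 CPM, so B16F10 and CDP lay above every CTC sample. Bst2, which tethers viruses to the cell, was at 131, 75.7, 83.6, 94.3 and 92.0 CPM in CTC against 43.7 CPM in PltLike. It was at 102, 126 and 52.8 CPM in B16F10, CDP and Duplike.

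Most leukocyte markers were present as traces. Of 16 monocyte and macrophage markers, 10 lay above PltLike in all 5 CTC samples and none below, beside 11.2% and 16.9% of all genes. Their sum, however, was 35.1, 19.5, 45.1, 74.4 and 11.3 CPM in CTC against 1.65 CPM in PltLike, with 63639 CPM in naive white blood cells. The B16F10 control had 33.1 CPM. Lyz2, the macrophage lysozyme, was at 12.5, 9.28, 23.6, 20.4 and 2.40 CPM in CTC against 1.24 CPM in PltLike. Ptprc, the pan-leukocyte CD45, was at 0.271, 0.118, 0.286, 0.313 and 0.0382 CPM in CTC against 0.0332 CPM in PltLike. The part of these traces in the immune gene differences was not tested. Of 15 pan-leukocyte genes, 7 lay above PltLike in all 5 CTC samples and none below, beside 11.2% and 16.9% of all genes. Arhgdib and Ptpn6 were more than traces. Arhgdib overlapped, at 740 to 1283 CPM in CTC against 856 CPM in PltLike, and B16F10 held 901 CPM of it. Ptpn6, a phosphatase typical of blood cells, was at 74.8, 45.1, 50.6, 53.04 and 80.3 CPM in CTC against 9.30 CPM in PltLike, with 24.2 CPM in B16F10. Of 7 fibroblast markers, 4 lay below PltLike in all 5 CTC samples, as did 16.9% of all genes. Col1a1, a collagen chain, was at 0.793, 0.0113, 0.00688, 0.0979 and 0 CPM in CTC against 29.7 CPM in PltLike, where 9 of 24 cells had counts. A single PltLike cell held 98.0% of these Col1a1 counts and 69.9% of the counts of the whole list. Without it Col1a1 was at 0.642 unscaled CPM in PltLike, and the list at 17.8.

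Of 18 mesenchymal and matrix genes, 5 lay above PltLike in all 5 CTC samples and 4 below, beside 11.2% and 16.9% of all genes. Adam12, a membrane metalloprotease, was at 117, 74.3, 62.5, 106 and 315 CPM in CTC against 10.8 CPM in PltLike and 0.00299 CPM in B16F10. Cd44, a hyaluronan receptor, was at 885, 1090, 1356, 1316 and 565 CPM in CTC against 459 CPM in PltLike. Cdh2, N-cadherin, was at 47.4, 39.5, 41.6, 48.1 and 69.5 CPM in CTC against 130 CPM in PltLike. Of 14 growth factor receptors, 1 (Met) lay above PltLike in all 5 CTC samples and 2 (Axl and Mertk) below, both shares under those of all genes. Met, the hepatocyte growth factor receptor, was at 856, 503, 724, 721 and 403 CPM in CTC against 337 CPM in PltLike. Of 10 coagulation genes, 2 lay above and none below, beside 11.2% and 16.9% of all genes. F3, tissue factor, which starts coagulation, was at 53.2, 82.0, 53.3, 84.7 and 161 CPM in CTC against 25.3 CPM in PltLike. None of these 5 named genes overlapped, and none passed edgeR's quasi-likelihood test, with adjusted p of 0.721 for Adam12 and Cdh2.

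Immediate early genes, which are switched on within minutes of a stimulus, varied widely among CTC. Fos was at 48.1, 25.9, 93.4, 867 and 59.9 CPM in CTC against 11.99 CPM in PltLike. In replicate 5 it was at 958 unscaled CPM in lung CTC and 127 in blood CTC, in replicate 3 at 43.5 in lung CTC and 119 in blood CTC, against 12.3 in PltLike. Nr4a1, a nuclear receptor, was at 248, 105, 183, 541 and 275 CPM in CTC against 33.5 CPM in PltLike. Of the 19 genes, 2 lay above PltLike in all 5 CTC samples and 1 below, so most overlapped. Both shares were under the 11.2% and 16.9% of all genes.

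Lysosome genes leaned to CTC over PltLike. All 5 CTC samples lay above PltLike for 8 of 17 members, where 11.2% of all genes did, and below it for none. The sum was 7416, 6665, 9052, 8667 and 6005 CPM in CTC against 5897 CPM in PltLike. B16F10, CDP and Duplike had 14170, 14271 and 6136 CPM, so B16F10 and CDP lay above every CTC sample. Ctsb, cathepsin B, was at 610, 559, 1353, 1401 and 846 CPM in CTC against 363 CPM in PltLike. In the other lists the counts were small or ran both ways. Over all genes, 11.2% lay above PltLike in all 5 CTC samples and 16.9% below it. Of 11 immune checkpoint and evasion genes, 4 lay above and 1 below. Lgals3 made up most of the sum in the CTC samples, but 33.3 of 131.6 CPM in PltLike. Of 20 genes of the ER stress and amino acid response, 1 lay above and 3 below, both shares under those of all genes. Those 3 make serine and glycine: Psat1 was at 105 to 321 CPM in CTC against 500 CPM in PltLike, Phgdh at 387 to 921 against 1100 CPM, and Shmt2 at 190 to 438 against 511 CPM. Of 10 iron handling genes, 1 lay above and 3 below, and of 11 p53 targets 3 lay above and 1 below. Heat shock and oxidative stress genes had 1 member on each side, and cholesterol synthesis had 2 above and 1 below.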

How the data were processed

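Raw counts per gene and cell, as deposited by the authors, came from Smart-seq2 libraries. Per the submitters' processing notes, Trim Galore, HISAT2, SAMtools and featureCounts were among the tools. No source used here gives their versions. Reads copied by PCR carry no molecular identifiers (56.7% of nonzero values were even), so intervals and floors (3 counts) cover counting error only. Depth per sum ran from 50.9 to 515 megacounts. No 2 cells were identical.

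Counts were summed per sample (5 CTC, 1 PltLike) and tested with edgeR 4.0.16 (R 4.3.3): TMM, filterByExpr, quasi-likelihood test, Benjamini-Hochberg over 12735 genes, threshold 0.05. On simulated data of 12220 genes this recovered 17% of changes of log2 size 2 and 57% of size 6. Named genes are the 12 protein-coding genes per direction with the largest log2 difference at least 2-fold outside the CTC range, at 20 CPM or more and with counts in at least 50% of cells of the higher group, plus a set of key genes and up to 4 genes per list. The last were the largest differences of at least 20 CPM, and a few genes (Dusp6, Lyz2, platelet markers) were added after values were seen. Members and lists were chosen with earlier results of these data known. Coordinates are from GENCODE vM21 (GRCm38), which held 18884 of 21138 symbols. Alternatives were scaling (DESeq2's size factors, TMMwsp, none), no filter, equal cell weights, blood CTC alone, at least 5 cells, leaving out each CTC sample, DESeq2 1.42.0, all sums of the series in 1 fit and, chosen after seeing the data, 2 cell removals. The matched DNA data were not analysed here. The values of 1 gene are not reported here.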

Additional observations from a re-analysis of the deposited data

Results flagged for a closer look

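Of 132 named genes with levels, 22 had 1 CTC sample far from the other 4, as did 1 of 34 list sums. The rule compares the gap to the nearest sample with the range, on unlogged CPM, and flags about 1 in 20 groups of normally distributed values. CPM need not be so distributed, and each flag fell on the highest CTC sample, so no excess of outlying samples is read from these counts. PltLike is a single sample and could not be looked at in this way.

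Replicate 6, the 5 blood CTC with the highest glycolysis and hypoxia sums, stood highest for 9 genes. It had 1391 CPM of Tinagl1, 125 CPM of Mgarp (a mitochondrial protein), 15.0 CPM of Prss23 and 0.822 CPM of Itga2b. It also had 173 CPM of Adm, 702 CPM of Bnip3, 770 CPM of Cdkn1a and 315 CPM of Adam12. For Cdh2 it stood highest too, at 69.5 CPM, although all 5 CTC samples were below PltLike. Adm and Bnip3 are hypoxia targets, and without replicate 6 the log2 difference of Adm, CTC over PltLike, turned to -0.17.

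Replicate 5, which held 10 of the 15 lung CTC, stood highest for Fos at 867 CPM, Plaur at 58.6 CPM, Ifi35 at 63.5 CPM and Slc22a18 at 5.41 CPM, and for the lung epithelial list at a sum of 2.84 CPM. Replicate 2 stood highest for Masp1 at 0.0281 CPM, Cd74 at 15.6 CPM and Id2 at 140 CPM. Replicate 1 stood highest for Ccn4 at 9.58 CPM, H2-Ab1 at 1.80 CPM, Col1a1 at 0.793 CPM and P2ry12 at 0.0774 CPM. Replicate 3 stood highest for Shmt2 at 438 CPM and Ppbp at 0.00688 CPM. The cause of these differences between CTC samples was not tested.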

How the results depend on the processing

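The count of genes called higher in CTC depended on most settings: it was 1 as reported, 0 with DESeq2's size factors, with no scaling, with samples of at least 5 cells, with all sums in 1 fit and without each gene's top cell, 5 with no filter and 295 with DESeq2, which also called 4 genes higher in PltLike. Leaving out 1 CTC sample gave 0 to 3 called genes. The log2 difference of Capn6 stayed at 18.09 with DESeq2's size factors, 18.06 with no scaling, 18.16 with at least 5 cells, 18.61 with all sums in 1 fit and 17.71 without its top cells, and it lost its call in each. Leaving out 1 sample gave 17.90 to 18.33, and only without replicate 6 was the call kept. Genes with PltLike at least 2-fold above all CTC numbered 1048 with no filter. Genes with PltLike at least 2-fold below all CTC numbered 345 as reported and 204 without each gene's top cell. They numbered 376 to 532 when 1 sample was left out (532 without replicate 6). Fewer CTC samples span a narrower range, so a rise on leaving 1 out is largely built in. Blood CTC alone left 4 mitosis genes below PltLike, against 12.

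Of 2124 recomputed log2 differences of named genes, 20 changed sign, in 10 genes, and none of the 24 largest did. With cells weighted equally, Mlana was at -0.0654, Mc1r at 0.0363 and Erbb3 at 0.0166. With blood CTC alone, Mlana was at -0.23, Mki67 at 0.45, Arhgdib at -0.0622 and Ccn1 at -1.62. With at least 5 cells, which equals leaving out replicate 1, Pmel was at -0.0932 and Mlana at -0.0674. Leaving out 1 sample gave Pmel from -0.0932 to 0.29, Mlana from -0.21 to 0.23, Mki67 from -0.34 to 0.0276, Arhgdib from -0.0594 to 0.16, Ccn1 from -0.35 to 1.09, Itga2b from -3.40 to 1.71 and Adm from -0.17 to 2.35. Without each gene's top cell, Pf4 was at 0.12 and Mc1r at 0.17. The cause was not tested. No paired analysis was possible because PltLike is 1 sample. Without the lung CTC of 3712 genes, no call was lost and no named gene changed sign. All spread comes from 5 CTC samples of 3 to 15 cells each.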
